A study of Mus musculus with 7 samples.

Results

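The Schlafen and Ifi200 gene families were examined in RNA sequencing of mouse neural stem cells, the dividing precursors of neurons and glia, at passage 1. The named family members were Slfn1, Slfn2, Slfn5, Slfn8 and Slfn9 of the Schlafen family and Ifi203, Ifi204, Ifi205 and Mndal of the Ifi200 family, 9 genes chosen by name with the expression values of these same libraries in view. Of these, 6 were among the 18145 genes of the deposited table (Slfn2, Slfn5, Slfn9, Ifi203, Ifi204 and Mndal), and the other 3 were not analysed here. A further 4 genes of the 2 families in the table, Slfn10-ps, Ifi202b, Ifi211 and Aim2, are described beside them.

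The groups were 2 lines of the genotype labelled Tet-TMut (TMut), 2 lines labelled Tet-TFoCa (TFoCa) and 3 wild-type lines (WT), with 1 library a line and no treatment in the labels. The design text writes Tet-FoCa for the second genotype. The study, by its title, weighs hydroxymethylated DNA against formylated and carboxylated DNA, the successive products that TET enzymes make from methylated cytosine. Which of these steps either mutant genotype alters, the mouse strain and any driver of the alleles are not in the labels. The lines are the replicates; nothing in the labels says whether lines came from different animals, so the errors below measure the spread between lines.

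Many Schlafen genes are induced by type I interferon, and their proteins act in growth control and on tRNA and ribosomes. The shorter mouse members, such as Slfn2, lack the helicase-like region that the longer members, such as Slfn5 and Slfn9, carry. Ifi200 genes, also called PYHIN genes, encode interferon-inducible proteins that bind DNA through a HIN domain and mostly carry a pyrin domain that contacts other proteins. In an interferon response, STAT and IRF factors bind short promoter elements, of which the interferon-stimulated response element holds a repeat of GAAA.

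RefSeq promoter windows, 250 bases before to 50 after a start site on build GRCm38.p6, were available for 5 of the 6 measured members, in 7 windows, and were searched on both strands for GAAA, any 2 bases and GAAA again. Of these genes 4 held a match (Slfn5, Slfn9, Ifi203 and Mndal), in 5 of the 7 windows, against 3.44% of all 32851 windows and 2.84% of the 16231 windows of genes in the table. Mndal held a match in each of its 2 windows, and only 1 of them is printed. The 5 stretches of 90 bases below show 1 match in each of these 4 genes and that Slfn2 has none there. Each reads 5′ to 3′ on the gene's strand, ends 1 base before the start site (for Slfn5, 111 bases before it), and has the match in capitals, which is written as its reverse complement where it lies on the other strand.
Slfn9: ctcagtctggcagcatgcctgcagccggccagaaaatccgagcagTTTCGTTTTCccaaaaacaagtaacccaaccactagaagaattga
Slfn5: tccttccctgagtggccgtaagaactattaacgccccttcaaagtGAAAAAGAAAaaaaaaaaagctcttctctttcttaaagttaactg
Slfn2: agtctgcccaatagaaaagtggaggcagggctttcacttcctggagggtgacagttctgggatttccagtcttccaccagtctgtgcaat
Ifi203: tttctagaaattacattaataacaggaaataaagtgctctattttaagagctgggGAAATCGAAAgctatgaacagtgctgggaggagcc
Mndal: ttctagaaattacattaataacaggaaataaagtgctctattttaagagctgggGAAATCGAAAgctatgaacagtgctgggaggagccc

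On GRCm38.p6 these stretches lie at chr11:82991831-82991920 on the minus strand (Slfn9), chr11:82951902-82951991 on the plus strand (Slfn5) and chr11:83065022-83065111 on the plus strand (Slfn2). The Ifi203 stretch lies at chr1:173942493-173942582 and the Mndal stretch at chr1:173880188-173880277, both on the minus strand. Shifted by 1 base, the Ifi203 and Mndal stretches were identical over all 89 bases compared, so the 2 genes share this promoter sequence as well as parts of their transcripts. Their matches in these stretches are thus not separate cases in the counts above. No member window held TTC, any 3 bases and GAA, a pattern of STAT sites found in 8.30% of all windows. Among the other family genes, Ifi211 held GAAATTGAAA, Ifi202b held TTCTCAGAA, and the Aim2 window held neither pattern. A match describes letters in the window only, and binding was not measured.

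The member windows held few CG dinucleotides, the sites of DNA methylation. Their number was 1 to 6 a window with a median of 2, against a median of 7 in all windows and 19 in windows of genes in the table. Of the 5 matches in member windows, 3 held a CG within the match itself (Slfn9, Ifi203 and 1 of the 2 Mndal windows), against 10.1% of the 1210 matches in all windows. The Ifi203 match and this Mndal match lie in the sequence the 2 genes share. They are not separate cases, and nothing is read from this share. Methylation was not measured in these libraries.

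Values below are normalized counts, the gene counts divided by the library's DESeq2 size factor. A difference is a log2 difference of normalized counts plus 1, with its standard error from 1 limma fit over all 7 libraries (n = 2 TMut, 2 TFoCa and 3 WT), so it understates the change of genes with few reads. Reads counted in genes numbered 35632516 to 36351320 in TMut, 33340167 to 41306668 in TFoCa and 34610944 to 62545457 in WT. Neural stem cell markers, all 13 of which were measured, summed to 132754 to 158257 in TMut, 164631 to 174621 in TFoCa and 193817 to 202411 in WT libraries. In these bulk libraries a lower share of cells of 1 type and less RNA per cell cannot be told apart.

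Every measured Schlafen member was higher in both TMut libraries than in every WT library, and Slfn2 and Slfn5 were close to absent in WT. Slfn2, whose loss in mice disturbs the quiescence of T cells, had 106 and 178 normalized counts in TMut, 3.83 and 4.87 in TFoCa and 0 in all 3 WT libraries. The 3 genotypes did not overlap, and the WT level lies under the limit that a count of 0 allows. Set over a floor of 3 reads in the WT group, the mean of Slfn2 was 176-fold that floor in TMut (log2 7.46). In TFoCa it was 5.40-fold that floor (log2 2.43). The TFoCa value rests on 4 reads in each library, and TMut stood above TFoCa by 4.70 ± 0.60. Were both mates of a pair counted, the floor would be 6 reads and these ratios would be log2 6.46 in TMut and log2 1.43 in TFoCa. The floor allows for counting error of the WT reads only. Counting error of the mutant reads and the spread between lines are left out, so these ratios are not lower limits of the change.

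Slfn5, one of the long Schlafen members, had 65.7 and 119 normalized counts in TMut, 0 and 13.4 in TFoCa and 0, 2.54 and 0 in WT. Both TMut libraries stood above all others, while the TFoCa and WT libraries overlapped. The difference was 5.87 ± 1.16 for TMut against WT and 1.32 ± 1.16 for TFoCa against WT, and TMut stood 4.56 ± 1.28 above TFoCa. The WT group held 4 reads of Slfn5 in all and the TMut group 156. The TFoCa difference was -0.61 when TFoCa replicate 2 was left out and 3.24 when replicate 1 was, and TMut then stood above TFoCa by 6.48 and 2.64.

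Slfn9, another long member, had 92.1 and 93.6 normalized counts in TMut, 13.4 and 70.6 in TFoCa and 15.7, 26.0 and 23.01 in WT. TMut was again above all other libraries, and TFoCa spanned the WT range, with replicate 1 below every WT library and replicate 2 above. The difference was 2.09 ± 0.65 for TMut against WT and 0.54 ± 0.65 for TFoCa against WT, and TMut stood 1.55 ± 0.71 above TFoCa. Leaving out TFoCa replicate 2 made the TFoCa difference -0.62, and leaving out TFoCa replicate 1 made it 1.69, with TMut then only 0.39 above TFoCa.

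The 3 Ifi200 members were higher in every library of both mutant genotypes than in any WT library. Ifi203, a PYHIN gene with pyrin and HIN domains, had 253 and 226 normalized counts in TMut, 78.5 and 195 in TFoCa and 1.57, 13.9 and 11.5 in WT. Both TMut libraries were highest, both TFoCa libraries came next, and WT was far below. The difference was 4.94 ± 0.78 for TMut against WT and 3.99 ± 0.78 for TFoCa against WT. TMut stood above TFoCa by 0.94 ± 0.86, a gap close to its standard error.

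Ifi204, a mouse relative of human IFI16 described as a nuclear and cytosolic DNA sensor, had 174 and 90.0 normalized counts in TMut, 37.4 and 91.3 in TFoCa and 0, 8.87 and 16.1 in WT. TMut replicate 2 and TFoCa replicate 2 were nearly equal, so the mutant genotypes overlapped while WT stayed below both. The difference was 4.51 ± 1.13 for TMut against WT and 3.43 ± 1.13 for TFoCa against WT, and TMut stood above TFoCa by 1.08 ± 1.24, within its standard error.

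Mndal, a PYHIN gene reported to restrain cell growth, had 46.1 and 8.40 normalized counts in TMut, 15.3 and 28.0 in TFoCa and 1.57, 0 and 2.30 in WT. The 2 TMut libraries lay on either side of the TFoCa pair. The WT group held 4 reads in all, against 47 in TMut and 39 in TFoCa. As ratios of reads per unit of library size, Mndal was 25.7 times as high in TMut as in WT (exact 95% counting interval 9.40 to 98.2) and 19.4 times as high in TFoCa (7.02 to 74.9). These intervals cover counting error of independent reads only, not the spread between lines, and would be wider had mates been counted singly. The fitted difference of TMut from WT was 3.37 ± 0.87, and it was 2.21 without TMut replicate 1 and 4.53 without TMut replicate 2. TMut differed from TFoCa by -0.05 ± 0.95, and by 1.11 without TMut replicate 2 and -1.21 without TMut replicate 1.

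**Figure D1:**
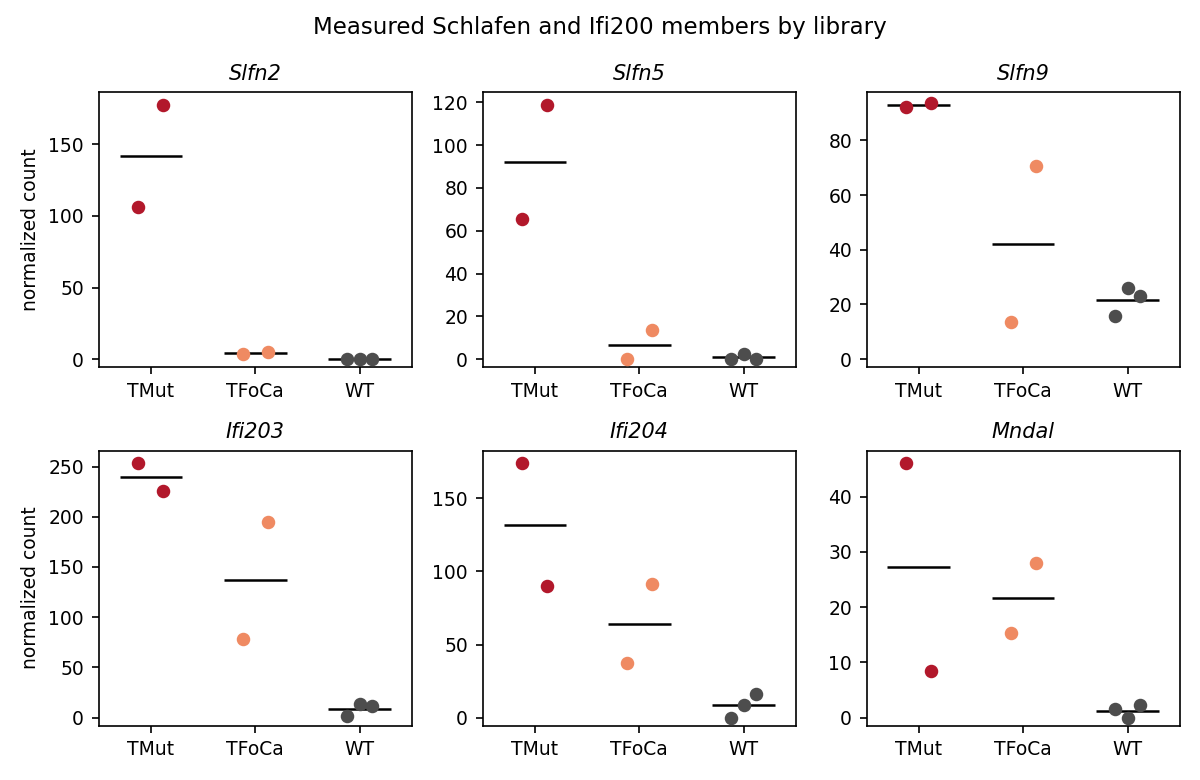
Normalized counts (y axis, linear, from 0) of the 6 measured Schlafen and Ifi200 members in each library; each point is the library of 1 line, grouped as TMut (n = 2), TFoCa (n = 2) and WT (n = 3), and bars are group means. Slfn2 and Slfn5 are high in TMut alone, at 65.7 or more, while Ifi203 and Ifi204 are also raised in both TFoCa libraries, at 37.4 or more.

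Summed over its 3 measured members, the Schlafen family had 264 and 390 normalized counts in TMut, 17.2 and 88.9 in TFoCa and 15.7, 28.5 and 23.01 in WT. The Ifi200 family had 473 and 324 in TMut, 131 and 314 in TFoCa and 3.14, 22.8 and 29.9 in WT. Thus TFoCa replicate 1 lay inside the WT range for Schlafen and well above it for Ifi200. Between the TMut lines, Slfn2 and Slfn5 were higher in replicate 2, and Ifi204 and Mndal in replicate 1. Slfn9 (92.1 and 93.6) and Ifi203 (253 and 226) differed little. Of the other family genes, Slfn10-ps and Ifi202b were higher in replicate 1 and Ifi211 and Aim2 in replicate 2, so no split ran through a whole family.

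Per kilobase of annotated exon, Slfn2 was the highest measured member in TMut, at a mean of 85.2 normalized counts per kilobase, against 2.61 in TFoCa and 0 in WT. Ifi204 followed at 37.1 per kilobase in TMut, 18.1 in TFoCa and 2.34 in WT, and Ifi203 at 35.7, 20.4 and 1.34. Slfn9 and Slfn5 had 15.6 and 14.6 per kilobase in TMut, and Mndal had 7.51. In TFoCa the order began with Ifi203 and Ifi204, ahead of Slfn9 (7.04) and Mndal (5.97). In WT Slfn9 was the highest measured member, at 3.61 per kilobase.

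In TMut against WT, limma called 6 of the 6 members higher at an adjusted p under 0.05, in a comparison where 18.4% of all 18134 genes tested were called higher; their median difference was 4.73, against 0.00 over all genes. In TFoCa against WT it called 2 of 6, Slfn2 and Ifi203, with 5.25% of all genes called higher and medians of 2.91 and -0.02. Between TMut and TFoCa it called 2 of 6 higher in TMut, Slfn2 and Slfn5, with 17.3% of all genes called higher and a median of 1.32 against 0.00. Libraries did not overlap, with the mutant higher, for 6 members in TMut against WT (33.4% of all genes) and 4 in TFoCa against WT (21.0%). TMut lay wholly above TFoCa for 4 members (33.9% of all genes). Nothing is read from these counts: the members were named with these values known, the 2 comparisons with WT share the WT libraries, and Slfn2, Slfn5, Ifi204 and Mndal would not have passed the expression filter on the WT libraries alone.

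The counts of called members depended on single lines. In TMut against WT 2 members were called without TMut replicate 1 and 3 without TMut replicate 2, and Slfn2 then fell under the filter and was not tested. Between TMut and TFoCa none was called without TMut replicate 1 or without TMut replicate 2, and 1 was called without TFoCa replicate 1. In TFoCa against WT none was called without TFoCa replicate 2, 1 without TFoCa replicate 1 and 1 without each WT library in turn.

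The 2 TFoCa lines differed along both families. TFoCa replicate 2 was above replicate 1 for 6 of 6 members, with a median gap of 1.28 log2 units, and for 4 of the 4 other family genes. Over all genes tested 50.2% were higher in replicate 2. The same direction was seen for 41 of 51 interferon-stimulated effectors, 16 of 19 DNA and RNA sensing genes and 14 of 18 MHC class I genes, but for 12 of 24 genes of interferon signalling. Among WT libraries, replicate 1 was lowest for 37 of the 51 effectors, against 38.5% of all genes. It was lowest for 9 of the 18 MHC class I genes, 7 of the 19 sensing genes and 5 of the 24 signalling genes. In the families it was lowest for 3 of the 6 members and 3 of the 4 other genes, counts too small to read against that share. With 1 library a line, no test of these gaps between lines can be made.

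Of the other family genes, Slfn10-ps, Ifi202b and Ifi211 passed the expression filter only with the mutant libraries, where they are high, so their p values describe these libraries and add no support. Slfn10-ps, a pseudogene beside Slfn9, had 29.9 and 24.0 normalized counts in TMut, 3.83 and 29.2 in TFoCa and 1.57, 0 and 0 in WT. It was low in TFoCa replicate 1 and in WT, and high in the other mutant libraries. The difference was 4.34 ± 0.89 for TMut against WT (limma adjusted p = 0.00725) and 3.14 ± 0.89 for TFoCa against WT (adjusted p = 0.0694), with 2 WT reads in all. As ratios of reads per unit of library size, Slfn10-ps was 50.3 times as high in TMut as in WT (exact 95% counting interval 13.2 to 428) and 27.9 times as high in TFoCa (7.04 to 242). The 2 WT reads could be the mates of 1 fragment, and these intervals too cover counting error of independent reads only. Without TFoCa replicate 1 the TFoCa difference was 4.46 (adjusted p = 0.0281); the lone TFoCa library is then assumed to vary like the other groups.

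Ifi202b, which encodes HIN domains without a pyrin domain and whose protein can hold DNA away from Aim2, had 396 and 363 normalized counts in TMut, 92.9 and 209 in TFoCa and 6.28, 7.61 and 31.1 in WT. The 3 genotypes did not overlap. It rose by 4.91 ± 0.67 in TMut against WT (limma adjusted p = 0.00125) and by 3.48 ± 0.67 in TFoCa against WT (adjusted p = 0.0205). The TFoCa call was lost without TFoCa replicate 2 (adjusted p = 0.0764), WT replicate 1 (0.0646) or WT replicate 2 (0.0723). The level of this gene is known to differ between inbred mouse strains, and the labels give no strain.

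Ifi211, a PYHIN gene close to Ifi204 and Ifi205 in sequence, had 65.7 and 68.4 normalized counts in TMut, 19.2 and 32.9 in TFoCa and 1.57, 2.54 and 2.30 in WT, again with no overlap. It rose by 4.45 ± 0.48 in TMut against WT (limma adjusted p = 0.000474) and by 3.07 ± 0.48 in TFoCa against WT (adjusted p = 0.0107). Its difference of TMut from TFoCa, 1.38 ± 0.52, did not pass the test (adjusted p = 0.0740).

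Aim2, the cytosolic DNA sensor of the inflammasome, showed another pattern: it had 410 and 529 normalized counts in TMut, 131 and 243 in TFoCa and 148, 310 and 300 in WT. Per kilobase of exon Aim2 was the highest family gene in WT, at 72.2, and the TFoCa and WT libraries overlapped. The difference was 0.95 ± 0.39 for TMut against WT (limma adjusted p = 0.0911) and -0.42 ± 0.39 for TFoCa against WT (adjusted p = 0.555). TMut exceeded TFoCa by 1.38 ± 0.43 (adjusted p = 0.0408), a call lost without TMut replicate 1 (adjusted p = 0.0703), TMut replicate 2 (0.173), TFoCa replicate 1 (0.164), WT replicate 2 (0.0569) or WT replicate 3 (0.0598).

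**Figure D2:**
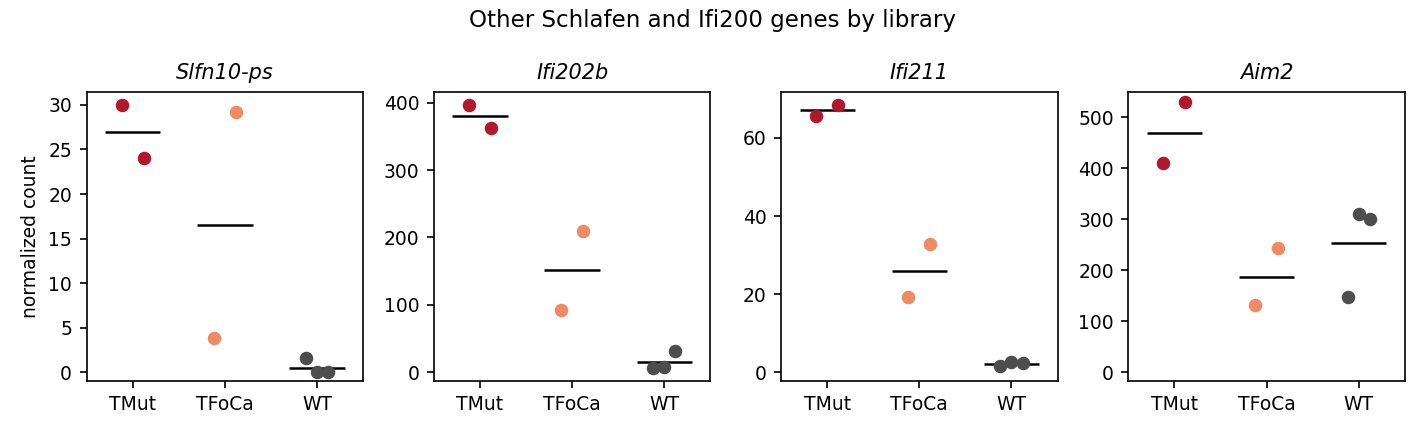
Normalized counts (y axis, linear, from 0) of the 4 other Schlafen and Ifi200 genes in each library; each point is the library of 1 line, grouped as TMut (n = 2), TFoCa (n = 2) and WT (n = 3), and bars are group means. Ifi202b and Ifi211 step down from TMut through TFoCa to WT, while Aim2 in WT reaches 310 and overlaps TFoCa.

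Near-identical copies can share or lose reads, and the sources used here do not say how such reads were counted. The read length is not given in the sources used here, and shorter stretches are shared more often. In the GENCODE annotation of GRCm38, 46.4% of the stretches of 150 bases in Ifi211 transcripts also occurred in another gene, mainly Ifi205 and Ifi204, so the Ifi211 values are uncertain. The share was 6.77% for Ifi204, through Ifi211. It was 5.46% for Slfn5, through its antisense gene Slfn5os, which cannot be told apart without strand. It was 2.51% for Slfn10-ps and 1.46% for Slfn9, through each other, 1.61% for Mndal and 0.827% for Ifi203. Slfn2, Ifi202b and Aim2 shared none at that length. At 50 bases the shares were 72.8% for Ifi211, 20.0% for Ifi204, 19.7% for Slfn10-ps, 19.6% for Mndal, 12.4% for Ifi203, 11.9% for Slfn9, 11.1% for Slfn5 and 4.27% for Slfn2.

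The interferon pathway around the families was read from lists of its genes, beside which stand all genes called: 18.4% higher and 20.4% lower (38.8% in all) in TMut against WT, 5.25% and 3.52% (8.77%) in TFoCa against WT, and 17.3% and 18.5% (35.8%) in TMut against TFoCa. Of 24 measured genes of interferon receptors and signalling (31 listed), 14 rose and 1, Irf8, fell in TMut against WT, with a median of 0.50 against 0.00 over all genes. Irf1, a transcription factor that acts on GAAA elements, had 1807 and 1771 normalized counts in TMut, 444 and 791 in TFoCa and 348, 408 and 343 in WT. It rose by 2.29 ± 0.24 in TMut against WT (limma adjusted p = 0.000417) and stood 1.59 ± 0.26 above TFoCa (adjusted p = 0.00428). In TFoCa against WT its difference was 0.70 ± 0.24 (adjusted p = 0.112), although both TFoCa libraries lay above all WT libraries. Irf8 fell by 1.13 in TMut (adjusted p = 0.0327). The list's rising count was 7 without TMut replicate 2 and 9 without WT replicate 3, and the Irf8 call was lost without any 1 WT library or TMut replicate 1. Without 1 of the TFoCa libraries 2 genes of the list fell.

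Stat3 and Socs3, a transcription factor downstream of several cytokine receptors and a feedback inhibitor it induces, were the 2 list genes that rose in TFoCa against WT, with a list median of 0.22 against -0.02. Socs3 rose by 1.42 ± 0.15 in TFoCa (limma adjusted p = 0.00319) and by 1.15 ± 0.15 in TMut (adjusted p = 0.00107). Stat3 rose by 0.98 ± 0.12 in TFoCa (adjusted p = 0.00498) and by 0.97 ± 0.12 in TMut (adjusted p = 0.00079). Leaving out TFoCa replicate 1, or replicate 2 in its place, 4 genes of the list rose in TFoCa against WT. Set against TFoCa, TMut had 7 of these genes higher and none lower, with a median of 0.36, and without TMut replicate 2 it had 2 higher. Without TFoCa replicate 1 it had 1 lower.

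Of 51 measured interferon-stimulated effectors (59 listed), 31 rose and 2, Adar and Phf11d, fell in TMut against WT, with a median of 1.47. Iigp1, an immunity-related GTPase, had 207 and 401 normalized counts in TMut, 67.1 and 68.2 in TFoCa and 1.57, 6.34 and 4.60 in WT. These genotypes did not overlap, and Iigp1 rose by 5.94 ± 0.55 in TMut against WT (limma adjusted p = 0.000275) and by 3.86 ± 0.55 in TFoCa against WT (adjusted p = 0.00832). Iigp1 passed the expression filter only with the mutant libraries, where it is high, so its p values describe these libraries and add no support. The same holds for Trim30a, Ifit3b and Oas3 among the rising effectors and for H2-Q6 among the rising MHC class I genes. Irgm1, of the same GTPase family, rose by 3.28 ± 0.40 in TMut (adjusted p = 0.00076), and Ifitm2, a membrane protein that restricts virus entry, by 1.32 ± 0.14 (adjusted p = 0.000417). Not every effector was called. Isg15, named after its values were seen, had 62.2 and 98.4 in TMut, 36.4 and 148 in TFoCa and 8.63, 39.3 and 63.3 in WT. Its TMut difference of 1.44 ± 0.88 was close to the list median of 1.47 but did not pass (limma adjusted p = 0.229). The rising count in TMut against WT was 16 without TMut replicate 2. The 2 falling calls were both lost without WT replicate 2, WT replicate 3 or TMut replicate 1, and 1 was left without WT replicate 1 or TMut replicate 2.

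In TFoCa against WT 2 effectors rose, Iigp1 and Shisa5, and 1 fell, with a median of 0.50. Phf11d, an interferon-inducible gene with a PHD finger, fell by 4.56 in TFoCa (limma adjusted p = 0.00321), at 5.75 and 9.74 normalized counts, against 163, 300 and 163 in WT; as for Ifi202b, the strain of the lines is not in the labels. Shisa5 rose by 0.56 ± 0.13 (adjusted p = 0.0426), a call lost without TFoCa replicate 1 (0.0963), any 1 WT library (0.0985 to 0.124) or 1 TMut library (0.0568 and 0.0569). Without TFoCa replicate 1, the line with low Schlafen values, 7 effectors rose and 2 fell, and without TFoCa replicate 2 1 more fell, making 2. In TMut against TFoCa 19 rose and 1, Adar, fell, with a median of 1.02. The 19 became 9 without TFoCa replicate 1 and 4 without TMut replicate 2, and the Adar call was lost without any 1 of the TMut or TFoCa libraries, WT replicate 2 or WT replicate 3.

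Of 19 measured genes of DNA and RNA sensing (25 listed), 7 rose and none fell in TMut against WT, with a median of 0.67. Ticam1, the adaptor of Toll-like receptor 3, rose by 1.12 ± 0.14 (limma adjusted p = 0.000818), and Ddx58, the RNA sensor RIG-I, by 1.69 ± 0.24 (adjusted p = 0.00151). In TFoCa against WT none rose and 2 fell, Rnaseh2b and Rnaseh2a, subunits of the enzyme that removes ribonucleotides from DNA, with a median of 0.05; without TFoCa replicate 1, 2 rose. Rnaseh2b fell by 0.76 (adjusted p = 0.00926) and Rnaseh2a fell by 0.60 (adjusted p = 0.0133); the Rnaseh2a call was lost without WT replicate 2 (0.0576) or WT replicate 3 (0.0580). Sting1, the adaptor that Ifi204 and other DNA sensors signal through, had 229 and 168 normalized counts in TMut, 90.0 and 285 in TFoCa and 39.2, 34.2 and 69.0 in WT. Both mutant genotypes lay above WT; the TFoCa difference of 1.80 ± 0.52 did not pass (adjusted p = 0.0735) and was 2.63 without TFoCa replicate 1 (adjusted p = 0.0234), where the lone TFoCa library borrows its spread from the other groups. In TMut against TFoCa 10 rose and none fell, with a median of 0.55, and 4 rose without TMut replicate 2.

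All 18 listed genes of MHC class I presentation were measured, and 12 rose and 1 fell in TMut against WT, with a median of 1.29. B2m, which encodes the light chain shared by class I molecules, rose by 1.83 ± 0.11 in TMut (limma adjusted p = 7.37e-05) and by 0.73 ± 0.11 in TFoCa (adjusted p = 0.00996). Psmb10, a subunit of the immunoproteasome, rose by 2.05 ± 0.22 in TMut against WT (adjusted p = 0.000474). H2-K1, a classical heavy chain, fell by 0.65 in TMut (adjusted p = 0.00534) and fell by 0.56 in TFoCa (adjusted p = 0.0327), the TFoCa call being lost without TFoCa replicate 1 (0.0762) or any 1 WT library (0.0963 to 0.111). B2m and H2-K1 were the only calls of the list in TFoCa against WT, whose median was 0.27; 3 genes rose without TFoCa replicate 1. In TMut against TFoCa 11 rose and none fell, with a median of 0.90. The 11 became 4 without TMut replicate 2, and 1 gene fell without TMut replicate 1.

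**Figure D3:**
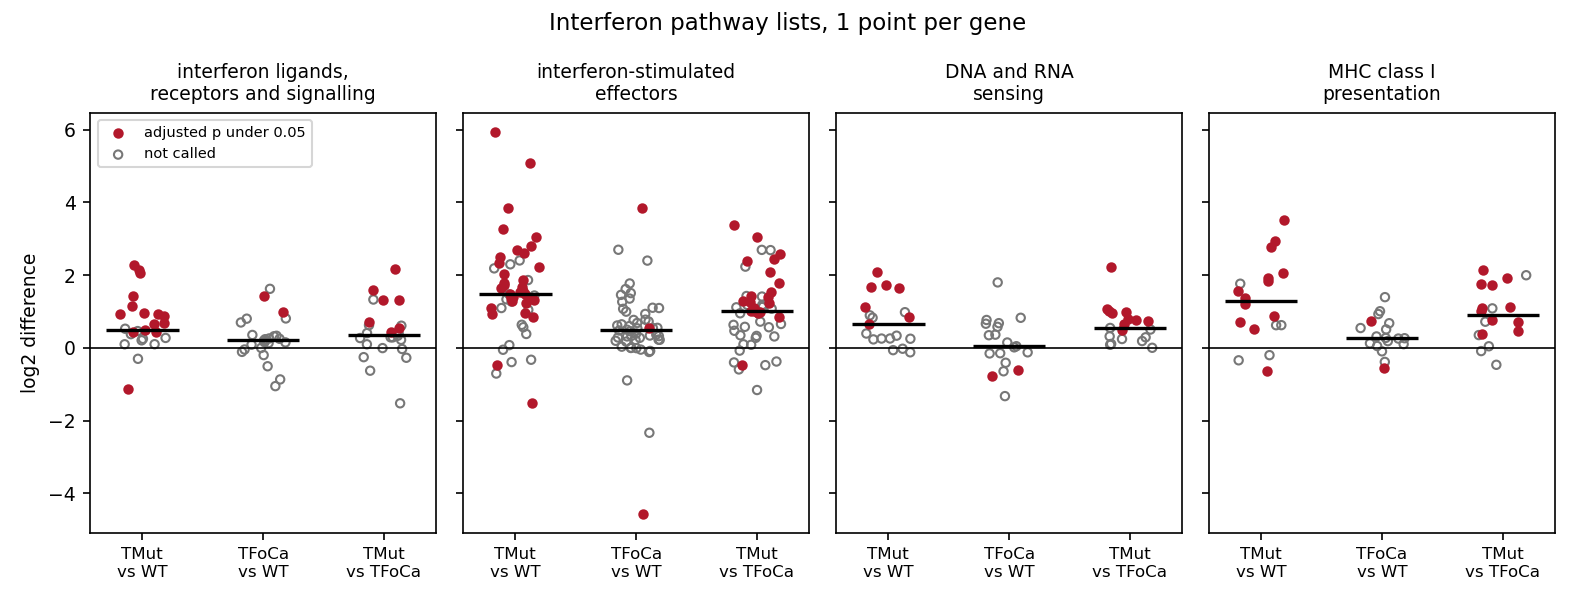
Log2 differences (y axis) of every measured gene of the 4 interferon-related lists in each comparison, with filled points for genes called by limma and a bar at each list's median. In TMut against WT the medians lie at 0.50, 1.47, 0.67 and 1.29, and in TFoCa against WT at 0.22, 0.50, 0.05 and 0.27, in the order signalling, effectors, sensing and MHC class I.

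Each family forms a cluster of neighbouring genes, so the 5 nearest measured genes on either side were examined in the RefSeq order of the earlier build. Beside the Schlafen cluster on chromosome 11, 2 of 10 neighbours rose and none fell in TMut against WT, where 18.4% of all genes rose and 20.4% fell. Unc45b, a myosin chaperone of muscle next to Slfn5, had 255 and 438 normalized counts in TMut, 274 and 453 in TFoCa and 51.8, 24.7 and 47.2 in WT. Both mutant genotypes stood above WT alike, with a rise of 3.06 ± 0.42 in TMut (limma adjusted p = 0.0013) and of 3.13 ± 0.42 in TFoCa (adjusted p = 0.00711). Nle1, of ribosome assembly, rose by 0.66 ± 0.18 in TMut (adjusted p = 0.0220), a call lost without WT replicate 1 (0.0629), WT replicate 3 (0.0697), TMut replicate 1 (0.0668) or TMut replicate 2 (0.103). Gm11427, a gene within the cluster, had 53.0 and 19.2 normalized counts in TMut, 5.75 and 7.30 in TFoCa and 9.41, 10.1 and 6.90 in WT. Its rise of 1.77 ± 0.57 in TMut against WT (adjusted p = 0.0413) was not called without TMut replicate 1 (0.233) or any 1 WT library (0.0826 to 0.114), and the gene passed the filter only through the TMut libraries.

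Beside the Ifi200 cluster on chromosome 1, 1 of 10 neighbours rose and 4 fell in TMut against WT. Again 18.4% of all genes rose and 20.4% fell. On the Aim2 side, Cadm3, a neuronal adhesion protein, fell by 2.37 in TMut (limma adjusted p = 0.000822), and Ackr1, an atypical chemokine receptor, fell by 2.38 (adjusted p = 0.00893). On the Ifi202b side, Fmn2, an actin nucleator, fell by 2.15 (adjusted p = 0.000392), and Rgs7, a regulator of G protein signalling in neurons, fell by 2.58 (adjusted p = 0.000403). The raised Ifi200 genes were thus flanked in TMut by genes of which 4 fell and 1 rose.

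Genes whose profile over the 7 libraries was most like that of each family were ranked by Pearson's r with the family's mean z-score, among 13822 genes with a mean of 100 or more in their highest genotype. With the pseudocount of 1, closest to Schlafen were Dusp12 (r = 0.993), Fzd5 (0.993), Plin2 (0.990), H2-M3 (0.989) and Gask1b (0.989). H2-M3, a nonclassical MHC class I gene, had 288 and 309 normalized counts in TMut, 44.1 and 172 in TFoCa and 38.4, 45.6 and 44.9 in WT. Closest to Ifi200 were Adamtsl1 (r = 0.992), Itm2a (0.988), Dnm3os (0.985), Mgp (0.983) and Arhgdib (0.981). Mgp, which encodes matrix Gla protein, had 6656 and 5313 normalized counts in TMut, 2211 and 3509 in TFoCa and 116, 180 and 374 in WT. The ranking depended on the pseudocount: with 8 in place of 1, Gask1b was the only 1 of these 5 to stay among the 5 closest to Schlafen, and Itm2a the only 1 for Ifi200. At a pseudocount of 1 the r was 0.95 or more for 150 genes (1.09%) with Schlafen and 100 genes (0.723%) with Ifi200. The r with the Ifi200 profile was 0.970 for Ifi202b, 0.948 for Ifi211 and 0.409 for Aim2, and that of Slfn10-ps with the Schlafen profile was 0.855. The 7 libraries share 3 genotypes, so these values describe the pattern only.

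Markers of other cell types were read beside the families. Of 15 fibroblast and mesenchymal markers, 8 rose and 3 fell in TMut against WT and 12 rose and none fell in TFoCa against WT. Their sum was 328622 to 426074 in TMut, 475680 to 536975 in TFoCa and 175191 to 196593 in WT. It was higher in both mutant genotypes than in WT, and highest in TFoCa. In TMut against TFoCa 2 of these markers were higher and 7 lower. Of 18 microglia and macrophage markers 6 were measured (Cd68, Tmem119, Fcer1g, Cd14, Laptm5 and Mpeg1), with sums of 1237 to 1514 in TMut, 751 to 1291 in TFoCa and 839 to 886 in WT; Cd68 and Laptm5 rose and Mpeg1 fell in TMut against WT, and none was called in TFoCa. Their defining members, such as Ptprc, Csf1r and Aif1, were not analysed here. Of 12 lymphocyte markers 2 were measured and none was called, with sums of 373 to 517 in TMut, 410 to 728 in TFoCa and 319 to 518 in WT. The 9 endothelial markers summed to 3571 to 4364 in TMut, 1706 to 2855 in TFoCa and 2479 to 2924 in WT, and the 10 pluripotency markers to 14884 to 59407, 2281 to 2397 and 13733 to 28021. Of the endothelial markers 3 rose and 1 fell in TMut against WT, and 1 rose and 1 fell in TFoCa against WT. Of the pluripotency markers 1 rose and none fell in TMut against WT, and 1 rose and 9 fell in TFoCa against WT. In TMut against TFoCa 9 pluripotency markers were higher and 1 lower. Of the 13 neural stem cell markers 1, Vim, rose and 11 fell in TMut against WT, and none rose and 2 fell in TFoCa against WT. The part of any of these cell types in the values of the families was not tested.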

How the data were processed

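RNA was extracted from passage 1 neural stem cells and sequenced as 7 libraries, grouped by the genotype in the labels. Per the submitters' processing notes, reads were handled with STAR 2.7.3a, Trim Galore 0.6.5, SAMtools, featureCounts and DESeq2 on build mm39; settings and annotation are not given in the sources used here. The deposited values are normalized counts (a signal): 100% of them came out as whole reads, within 0.001 read, once multiplied by a library factor, and DESeq2's own factors for those reads were the same. The smallest sum over the 7 libraries of any gene in the table is 71 reads. Even numbers made up 70.3% to 79.3% of the counts between 1 and 20 reads, so mates may have been counted singly, which the sources do not state.

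A gene entered the test when 2 or more libraries reached a normalized count of 10 (18134 of 18145, with all 6 measured members). limma 3.58.1 (R 4.3.3, intensity trend) fitted the log2 of the value plus 1 over 3 genotypes, leaving 4 residual degrees of freedom. Calls were made under an adjusted p of 0.05 (Benjamini-Hochberg, all genes tested). The test was checked on simulated data with the same spread in every gene. Differences were added only to genes of higher mean count, so the check does not cover members near 0 reads in WT. Members were given no p of their own. The members, lists, rule and alternatives were chosen with earlier results of these data known. The rule took all members, the 3 or 4 genes of each list with the smallest adjusted p, the neighbours and the 5 closest profiles; the text names fewer, and that reduction, like the naming of genes behind counts of 5 or fewer, followed the values. Alternatives were pseudocounts of 0.5 and 8, no filter, a mean of 50 or more, TMM factors, edgeR 4.0.16, DESeq2 1.42.0, a fit to 2 genotypes, a replicate block, and leaving out each library. Exon lengths, shared sequence and gene order came from annotations of GRCm38, which is not the build of the files. Of the cluster neighbours, 1 enters the counts and is not reported here.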

Additional observations from a re-analysis of the deposited data

How the results depend on the processing

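No member difference changed sign under the other pseudocounts, filters, TMM factors, edgeR, DESeq2, the fit to 2 genotypes or the replicate block, except that of Mndal between TMut and TFoCa (-0.05), which was 0.04 with a pseudocount of 8, 0.35 by edgeR and 0.34 by DESeq2. With a pseudocount of 8, which shrinks low genes by construction, the TMut difference from WT was 3.46 for Slfn5 and 1.69 for Mndal. The TFoCa difference was then 1.65 for Mndal. By edgeR and DESeq2 the TMut difference of Mndal was 4.50 and 4.54. With 0 WT reads, the Slfn2 difference followed the setting. In TMut against WT it was 7.11, and 8.11 and 4.18 with pseudocounts of 0.5 and 8. For it edgeR gave 10.2 and DESeq2 9.86. In TFoCa against WT, on 8 TFoCa reads, it was 2.41, 3.27, 0.63, 5.21 and 4.82 in the same order. Of the count of members called in TMut against WT (6), 2 were left with a mean of 50 or more, where only 2 were tested, and 2 to 6 when a library was left out. In TFoCa against WT (2), a pseudocount of 8, a mean of 50 or more and the replicate block each gave 1, DESeq2 gave 4 and leaving out a library gave 0 to 2. In TMut against TFoCa (2), a mean of 50 or more gave 0, the fit to 2 genotypes 1 and leaving out a library 0 to 3. Over the 4 interferon-related lists together, 68 genes were called in TMut against WT, with 41 to 73 when a library was left out. The 9 in TFoCa against WT became 4 with the replicate block and 26 with DESeq2, with 6 to 20 when a library was left out. The 48 in TMut against TFoCa became 26 in the fit to 2 genotypes, with 14 to 47 when a library was left out. By list (signalling, effectors, sensing and MHC class I), 3, 11, 6 and 6 genes were higher in TMut than in TFoCa in the fit to 2 genotypes, and 5, 8, 2 and 4 in TFoCa than in WT by DESeq2. Of 20 cluster neighbours, the 2 called in TFoCa against WT became 1 with a pseudocount of 8, a mean of 50 or more, the fit to 2 genotypes, the replicate block or edgeR, and 1 to 2 when a library was left out. The 7 and 6 called in the other comparisons stayed within 1.5 times of these counts. With the replicate block the TFoCa calls of Ifi211 (adjusted p = 0.0558), B2m (0.0584) and Rnaseh2b (0.0660) were lost, and Aim2 was called in TMut against WT (1.12, adjusted p = 0.0343). Ifi211 was called in TMut against TFoCa with a pseudocount of 8 (adjusted p = 0.0277) and by edgeR (0.0474). Same-numbered libraries deviated together by correlations of 0.0219 to 0.186 across genes, so the numbers were not taken to pair the lines. Where a cause is not given by fewer libraries or genes, the cause was not tested. Precision is limited by 2 lines in each mutant genotype with 4 residual degrees of freedom and, for Slfn2, Slfn5 and Mndal in WT, by depth, at 0 to 4 reads in all.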
